A study of Mus musculus with 30 samples.

Results

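Bipolar cells are the interneurons that carry the signal of rods and cones to the inner retina, and 6 genes used as markers of these cells, Grm6, Trpm1, Pcp2, Vsx1, Prkca and Cabp5, were followed in arrays of whole eye and hypothalamus from Per3-/- and wild type (WT) mice. The 6 genes, of 28146 gene names on the array, were read by every probe that the array annotation assigns to one of these symbols, which gave 8 probes of the 41174 on the array that are not controls. Trpm1 and Pcp2 had 2 probes each and the other genes had 1. All mice were adult males on a C57Bl/6J background, either homozygous for the Per3 knockout allele (KO) or WT litter mates, housed singly with running wheels. After a standard light/dark cycle they went through 17 ultradian cycles of 3.5 h light and 3.5 h dark, and all were killed in the second hour of the last light period, so every group shared the same lighting and a single sampling time. Whole eyes came from 7 WT and 7 KO mice. A block of tissue cut around the optic chiasm, which holds the suprachiasmatic nucleus, came from 8 WT and 8 KO mice and is called hypothalamus here. The knockout is present in every cell of the animal, and a whole eye holds lens, cornea, pigment epithelium and muscle besides retina. In such bulk samples fewer bipolar cells and less RNA per cell cannot be told apart.

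In the dark, photoreceptors release glutamate, and ON bipolar cells read it through mGluR6, the metabotropic receptor that Grm6 encodes. The receptor acts through a Go protein that closes the cation channel TRPM1, and light, by ending the glutamate release, lets this channel open. Pcp2 is a regulator of Go and Gi proteins found in ON bipolar cells and in Purkinje cells of the cerebellum, and Prkca encodes protein kinase C alpha, the classical marker of rod bipolar cells, which is also widely used outside the retina. Cabp5 is a calcium-binding protein of rod bipolar cells and of some cone bipolar types, and Vsx1 is a homeodomain transcription factor of cone bipolar cells. Trpm1 was first known from melanocytes, and pigmented cells of the eye express it too.

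What each probe reads is shown here because 2 genes rest on a pair of probes that do not read the same part of the transcript. All probes are 60 bases long and are given 5′ to 3′ from the array annotation, with mm9 positions. The Pcp2 probes at chr8:3623499-3623558 and chr8:3623540-3624548, both on the minus strand, overlap by 19 bases, set in capitals, and the second spans a splice junction, since its 60 bases cover 1009 bases of the genome.
Pcp2 A_52_P643832: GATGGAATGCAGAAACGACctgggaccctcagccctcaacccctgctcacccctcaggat
Pcp2 A_51_P448677: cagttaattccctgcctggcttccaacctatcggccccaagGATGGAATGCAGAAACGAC
The Trpm1 probes share no stretch longer than 4 bases and lie apart on chromosome 7, A_51_P338031 at chr7:71369544-71369603 on a RefSeq transcript and A_51_P349611 at chr7:71386308-71386367 on a cDNA clone from neonate skin, both on the plus strand. Their first 30 bases follow, with no part set in capitals.
Trpm1 A_51_P338031: aagtaggacatgtttgtggcagtttattta
Trpm1 A_51_P349611: agaagttgcatccattttagaaagctctca
The Grm6 probe lies at chr11:50678769-50678828 and the Cabp5 probe at chr7:13990864-13993158, both on the plus strand, and the latter spans 2295 bases of the genome and so a junction. The Vsx1 probe lies at chr2:150507270-150507329 and the Prkca probe at chr11:107800035-107800094, both on the minus strand. Whether these stretches are coding or untranslated was not analysed here.

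Values are log2 of the processed signal minus the 75th percentile of the same array, and signals of different probes are not set against each other. The 75th percentile lay between 1131 and 2207 intensity units, and between 67.9% and 80.7% of probes were well above background on an array. Each tissue was run on 4 slides that held both genotypes, and no slide held both tissues, so tissue and slide cannot be told apart. Median correlations with the other arrays of the same tissue were 0.985 to 0.99 in eyes and 0.989 to 0.993 in hypothalamus, where the arrays of KO mice 1 and 7 had the lowest. The Per3 probe was well above background on all 30 arrays. Its signal ran from -4.12 to -2.90 in KO and from -3.55 to -2.57 in WT eyes, and from -4.21 to -3.59 in KO and from -3.79 to -3.28 in WT hypothalamus. These ranges overlap in both tissues, and whether the probe lies inside the deleted part of Per3 was not given in the sources used here. As a check of the tissue labels, all 14 rod and cone markers were well above background on every eye array, and all 14 were higher in the eye. On the hypothalamus arrays 5 of them were well above background on none, and 3 (Nrl, Pde6h and Sag) were so on all 16. The hypothalamic neuropeptide genes were well above background on all 16 hypothalamus arrays, 8 of 8. Of these, 7 had a higher mean in hypothalamus than in the eye and Vip did not, and Oxt, Vip, Hcrt, Pomc and Agrp were also above background on all 14 eye arrays. The samples of a group came from separate mice.

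All 6 genes were measured well above background on all 14 eye arrays, by at least 1 probe, as were 27877 of all 41174 probes. In hypothalamus, Grm6, Vsx1 and Cabp5 were well above background on none of the 16 arrays, the RefSeq probe of Trpm1 was so on 1 and Pcp2 and Prkca were so on all 16. In limma, fitted over both tissues with a random effect for the mouse, all 8 probes were higher in the eye after Benjamini-Hochberg adjustment over all probes. This has to be read against 47.9% of all probes that were called higher in the eye, and against a median eye minus hypothalamus difference of 0.19 on the log2 scale over all probes (-0.07 with quantile normalization and 0.37 with normexp). Of the calls between the tissues, 57.6% were higher in the eye, a share that was 46.4% with quantile normalization and 64.8% with normexp background correction, while the differences of the 7 probes other than A_51_P349611 kept their sign and their call under both.

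**Figure D1:**
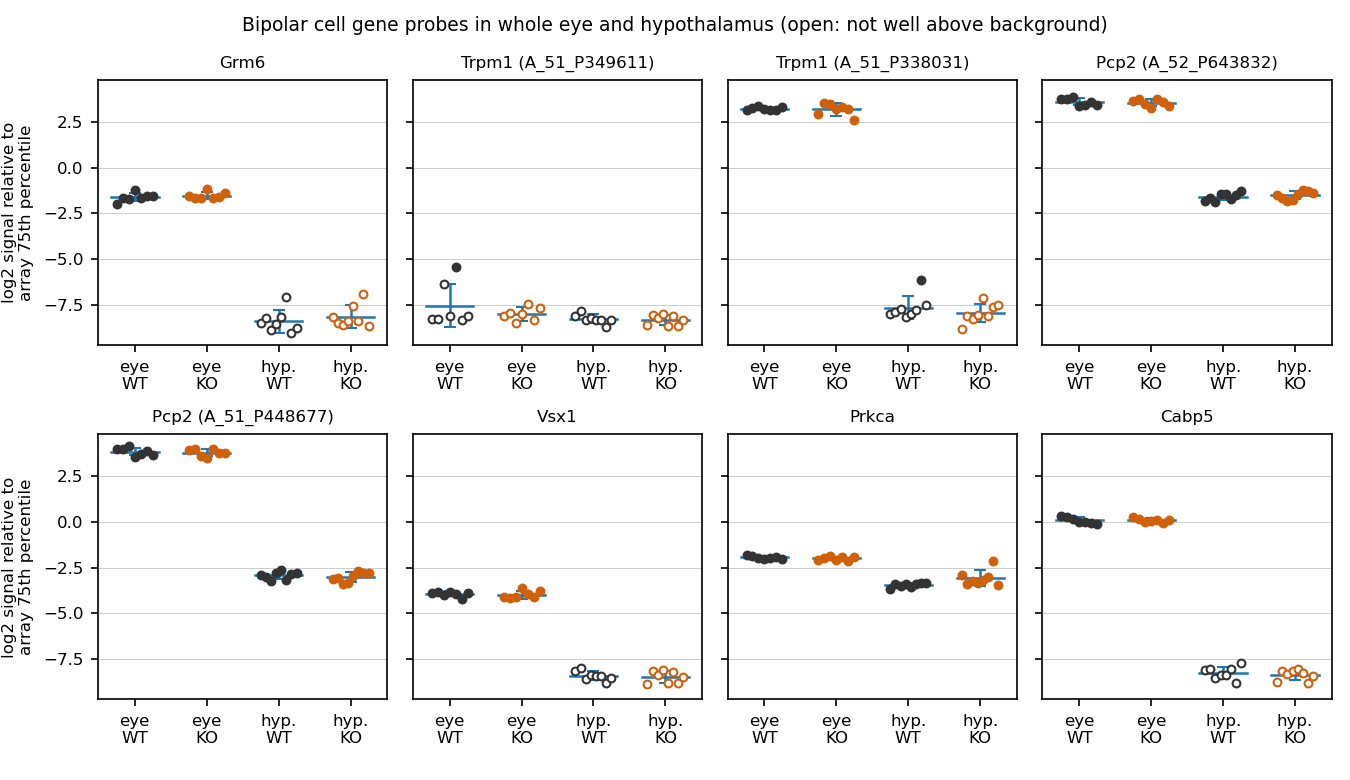
Log2 signal relative to the 75th percentile of the array (vertical axis) for each of the 8 probes on every array, by tissue (eye, or hyp. for hypothalamus) and genotype (horizontal axis). Filled points were well above background and open points were not, and lines and bars give the group mean and SD. The eye points of WT and KO overlap for every probe, and hypothalamic points are open for Grm6, Vsx1, Cabp5 and the Trpm1 probe A_51_P349611.

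Grm6, the receptor at the head of the cascade, ran from -1.98 to -1.23 with a median of -1.65 in WT eyes and from -1.67 to -1.18 with a median of -1.63 in KO eyes. The genotypes overlapped, with the lowest WT eyes below every KO eye. Its hypothalamic signal lay between -9.05 and -6.91, never well above background, so only a bound can be given. The eye was at least 30.8-fold higher, with an adjusted p of 2.62e-25 for the measured difference of 6.71 ± 0.16 (SE) on the log2 scale.

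Trpm1, the channel at the end of the cascade, was read at a median of 3.22 in WT eyes, between 3.14 and 3.35, by its RefSeq probe. In KO eyes the median was 3.20 and the range 2.58 to 3.56. The KO eyes were therefore spread more widely, with an SD of 0.336 against 0.0892 in WT (n = 7 each), 2 of them lying below and 2 above every WT eye. The SDs were not compared by a test. The hypothalamus was well above background on 1 array, that of WT mouse 7 at -6.17, and the mean difference of 11.02 ± 0.16 (SE) corresponded to at least 824-fold higher signal in the eye when dim arrays were set to their detection floor (adjusted p 1.09e-30).

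The second Trpm1 probe, from the skin cDNA, gave another picture. It was well above background on 1 of 14 eye arrays, that of WT mouse 6 at -5.45, while the other eyes lay between -8.52 and -6.36 and the hypothalami between -8.70 and -7.84. Its eye minus hypothalamus difference was 0.52 ± 0.21 (SE) with an adjusted p of 0.0264. No fold is given because its bound lies below 1. The call was lost with quantile normalization (0.01, adjusted p 0.978), in WT mice alone (0.72, adjusted p 0.104), and without WT mouse 4 (0.42, adjusted p 0.0654), WT mouse 6 (0.34, adjusted p 0.0502) or KO mouse 8 (0.49, adjusted p 0.0505), and adjusted p ran from 0.0135 to 0.978 over all alternatives. The 2 Trpm1 probes did not vary together across eyes (Pearson's r = -0.07, permutation p = 0.66; Spearman's rho = 0.18, permutation p = 0.45; n = 14).

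Pcp2 was read well above background everywhere. By the junction probe A_51_P448677 it ran from 3.57 to 4.14 with a median of 3.91 in WT eyes, from 3.50 to 3.99 with a median of 3.80 in KO eyes, and from -3.41 to -2.60 over the 16 hypothalami. The difference between the tissues was 6.80 ± 0.08 (SE), or 111-fold (adjusted p 6.56e-33). By A_52_P643832 it was 5.13 ± 0.07 (SE), or 34.9-fold, so the probes agreed in direction and differed in size. They rose and fell together across eyes (r = 0.95 and rho = 0.95, permutation p = 1e-05 for each, the smallest that 100000 resamples can give), and with slide means removed r was 0.95 as well.

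Prkca had the smallest difference between the tissues among the probes measured on every array. It ran from -2.04 to -1.81 with a median of -1.95 in WT eyes and from -2.16 to -1.84 with a median of -1.97 in KO eyes. The eye was higher by 1.29 ± 0.09 (SE), or 2.45-fold (adjusted p 1.73e-14), and the hypothalamic array of KO mouse 7, at -2.13, fell into the range of the eyes. Prkca was thus read on every array of both tissues, while the other rod bipolar marker, Cabp5, was read in the eye.

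Cabp5 ran from -0.12 to 0.34 with a median of 0.01 in WT eyes and from -0.07 to 0.29 with a median of 0.11 in KO eyes. Its hypothalamic signal lay between -8.82 and -7.74 and never rose well above background. The eye was at least 97.8-fold higher (measured difference 8.41 ± 0.09, SE; adjusted p 5.91e-34). Vsx1, the transcription factor, ran from -4.22 to -3.81 with a median of -3.89 in WT eyes and from -4.17 to -3.60 with a median of -4.09 in KO eyes, against -8.85 to -8.01 in hypothalamus. This was at least 5.92-fold higher in the eye (measured difference 4.49 ± 0.09, SE; adjusted p 6.31e-28).

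The genes around the members in the same pathway were read from fixed lists, members included, with the probe of highest eye signal standing for each gene, a choice that can favour a higher value in the eye. Of 13 genes of the ON bipolar cascade on the array, 10 were higher in the eye, 2 were lower and Gng13 did not pass, with a median difference of 3.69. Over all probes 47.9% were called higher in the eye, with a median difference of 0.19. Rgs9bp, the anchor of an RGS protein, was higher by 8.37 ± 0.11 (SE), and Lrit1, a leucine-rich repeat protein of the photoreceptor synapse, above background on 2 of 16 hypothalamus arrays, was at least 3337-fold higher (measured difference 12.77 ± 0.25, SE). Rgs7 and Gnao1, which brain neurons use widely, were lower in the eye, at -2.34 and -1.42.

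Of 14 transcription factors of bipolar cells, 12 were higher in the eye and none was lower, with a median difference of 2.52. This stands beside 47.9% of all probes called higher in the eye. Crx, a factor of photoreceptors and bipolar cells, above background on 1 hypothalamus array, was at least 632-fold higher (measured difference 11.10 ± 0.29, SE). Bhlhe23, a factor of rod bipolar and amacrine cells, was higher by 5.46 ± 0.14 (SE). Irx5 and Nfia did not pass. Of 18 subtype and synapse genes, 13 were higher and 4 lower in the eye, with a median of 2.06, beside the same 47.9% of all probes. Cabp2 was higher by 5.83 ± 0.14 (SE), above background on 10 hypothalamus arrays. Cacna1f, a calcium channel of the ribbon synapse not above background in hypothalamus, was at least 27.6-fold higher (measured difference 5.29 ± 0.15, SE). Grik1, a kainate receptor counted as higher at 1.0 ± 0.06 (SE), was lower by its other probe, at -1.40 ± 0.06 (SE). Neto1, an auxiliary subunit of kainate receptors, stood at -3.95 ± 0.06 (SE), the glutamate receptor Grm7 at -2.77 ± 0.09 (SE) and the channel Hcn4 at -1.24 ± 0.18 (SE), all higher in hypothalamus. By its chosen probe, every gene of these 3 lists was well above background on all 14 eye arrays, as were 27877 of all 41174 probes. Other probes of some genes were not, such as A_52_P231217 of Nfia and A_52_P551544 of Grm7, above background on 0 of 14.

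The question of the design was whether the loss of Per3 altered the level of these genes. No probe of the 6 genes passed in the eye after adjustment over all probes (0 of 8, adjusted p = 1.0 for each in limma), where 0.0194% of all probes did. At an unadjusted p under 0.05 it was again 0 of 8, against 1.8% of all probes. Leaving out A_51_P349611, which was near background, the KO minus WT differences in the eye lay between -0.06 for Pcp2 and Prkca and 0.09 for Grm6. Their intervals bound what could have been missed. For Grm6 the 95% interval ran from -0.15 to 0.32, or from 0.9-fold to 1.25-fold. For Trpm1 by its RefSeq probe the interval ran from -0.33 to 0.23, or from 0.797-fold to 1.17-fold. Among the other 5 probes none reached beyond 0.82-fold or 1.13-fold.

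The eye groups were also compared by exact permutation of the genotype labels. Over 3432 arrangements the two-sided exact p ran from 0.274 for Prkca to 0.961 for Cabp5. No member had groups that did not overlap, against 0.0704% of all probes in the eye. The rod and cone mean stood at 4.30 ± 0.11 in WT and 4.27 ± 0.12 in KO eyes (SD, n = 7 each), a difference smaller than the spread between eyes. With that mean as a covariate the differences of the same 7 probes ran from -0.06 to 0.06, and with slide as a block from -0.06 to 0.09. With normexp background correction Vsx1 stood at 0.21 ± 0.26 (SE), and the signs of Vsx1 and Prkca turned to positive and that of Cabp5 to negative. Under that correction the median KO minus WT difference over all probes in the eye was 0.18, against 0.0047 without it.

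**Figure D2:**
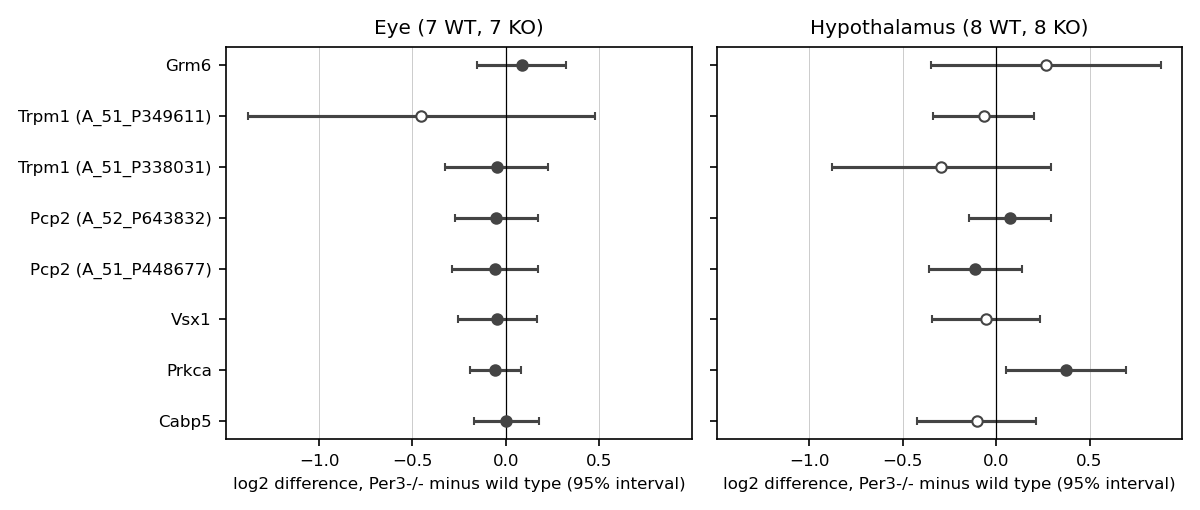
KO minus WT difference on the log2 scale (horizontal axis) with its 95% interval from limma for each probe (vertical axis), in the eye (left) and the hypothalamus (right). Filled points were well above background on all arrays of the tissue and open points were not. Every interval contains 0 except that of Prkca in the hypothalamus, 0.05 to 0.69, which did not pass adjustment.

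In hypothalamus no probe of the 6 genes passed either (0 of 8, where 0.0413% of all probes did), and 1 of 8 had an unadjusted p under 0.05, where 2.82% of all probes did. That probe was Prkca. In WT it ran from -3.68 to -3.32 with a median of -3.40, and in KO from -3.44 to -2.13 with a median of -3.20. The groups overlapped, and 6 of the 8 KO arrays lay above every WT array. The difference was 0.37 ± 0.15 (SE), with an unadjusted p of 0.025 and an adjusted p of 0.991 in limma, and the exact permutation p over 12870 arrangements was 0.00761, unadjusted (0.0154 when labels were exchanged within slides). Groups that did not overlap were seen for no member, against 0.0437% of all probes in hypothalamus.

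The highest Prkca value was that of KO mouse 7, at -2.13, followed by KO mouse 1 at -2.87. Without KO mouse 7 the difference was 0.24 ± 0.09 (SE), and without both mice, a setting chosen after the values were seen, it was 0.18 ± 0.08 (SE), with an adjusted p of 1.0 in limma for each, and over all alternatives the adjusted p ran from 0.437 to 1.0. KO minus WT was 0.40, 0.18, 0.37 and 0.55 on slides 1 to 4, positive on each. With normexp background correction it was 0.22 ± 0.13 (SE). Single genes of the bipolar lists in which at least 1 of these 2 arrays lay at an end of the range follow, and then means of cell type lists. Scgn, the calcium-binding protein secretagogin, was at -1.82 in KO mouse 7 and between -5.44 and -4.76 on the other 15 arrays. Slc17a7, a vesicular glutamate transporter, was also highest in KO mouse 7, at -0.03, and between -1.75 and -0.32 elsewhere, lowest in KO mouse 1. Neither array lay far from the rest in Slc17a7, with KO mouse 6 at -0.32 and WT mouse 1 at -1.51. Gnb3, the beta subunit that serves cones and ON bipolar cells, was at -0.68 in KO mouse 1 and between -4.53 and -3.26 elsewhere. Of the cell type lists, the mean of the horizontal cell genes was 0.11 in KO mouse 7 and 0.41 to 0.63 elsewhere, and that of the amacrine cell genes 2.82 against 2.24 to 2.67. Both arrays were lowest in the mean of 10 bipolar transcription factors, at -2.17 in KO mouse 1 and -2.20 in KO mouse 7, against -2.03 to -1.51 elsewhere. They were also lowest in the mean of 4 cerebellar Purkinje genes, at 0.29 and 0.26, against 0.45 to 0.75 elsewhere. The neuronal genes among these are used by neurons outside the retina too, and what part any of these genes had in the Prkca difference was not tested.

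For Pcp2 in hypothalamus the probes gave opposite signs, -0.11 ± 0.12 (SE) and 0.07 ± 0.10 (SE), neither beyond its error. Grm6, Trpm1, Vsx1 and Cabp5 were near background there, and their genotype differences, -0.29 to 0.27, are not read further. The genotype difference in the eye minus that in hypothalamus passed for 0 of 8 probes, where 0.00486% of all probes did. Without adjustment it was 1 of 8 at a p under 0.05, against 2.21% of all probes. This was again Prkca, at -0.43 ± 0.17 (SE), with an unadjusted p of 0.0179 and an adjusted p of 1.0 in limma.

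The wider lists showed as little. Over all probes in the eye, 0.0194% passed and 1.8% had an unadjusted p under 0.05. Of the lists, 0 of 13 cascade genes, 0 of 14 transcription factors and 0 of 18 subtype and synapse genes passed there, and none had an unadjusted p under 0.05. Their median KO minus WT differences were -0.04, -0.03 and -0.0008, beside 0.0047 over all probes. Among the largest differences were -0.11 ± 0.10 for Rgs9bp and -0.11 ± 0.12 for Gnb3 in the cascade, -0.15 ± 0.13 for Bhlhe23 and -0.07 ± 0.10 for Bhlhe22 among the factors, and -0.22 ± 0.19 for Grm7 among the rest (SE), each within 2 SE of 0. The other Grm7 probes stood at 0.13 ± 0.17 and 0.08 ± 0.20 (SE). In hypothalamus none of these genes passed, and at an unadjusted p under 0.05 there were 0 of 13 cascade genes, 1 of 14 factors (Irx6, -0.17 ± 0.07, SE) and 1 of 18 others (Prkca). Over all probes in hypothalamus, 0.0413% passed and 2.82% had an unadjusted p under 0.05. The largest differences outside the members were 0.46 ± 0.41 for Gnb3, 0.55 ± 0.54 for Crx, 0.35 ± 0.33 for Lhx3 and 0.55 ± 0.40 for Scgn (SE). Crx was above background in KO mouse 3 alone, at -4.50, against -9.14 to -6.98 on the other arrays, and the high values of Gnb3 and Scgn in single KO mice are given above. The medians were -0.03, -0.01 and -0.01 beside -0.01 over all probes.

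Whether the 6 genes rose and fell together from eye to eye was asked next. They were compared as 15 pairs over 14 eyes, with genotype means removed and the probe of highest eye signal standing for its gene. Of the 15 correlations 7 were positive, the median r was -0.02 and the range -0.69 to 0.63. None passed adjustment over the 15 pairs, for r or for rho.

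The strongest pair was Grm6 with Pcp2, in opposite directions (r = -0.69, permutation p = 0.00872, adjusted p = 0.131; rho = -0.60, permutation p = 0.0352, adjusted p = 0.217; n = 14). Eyes high in Pcp2 were low in Grm6. Without the 2 eyes farthest from the median of Grm6, which also narrows the range of Grm6, r was -0.38 (permutation p = 0.279). With single eyes left out r ran from -0.80 to -0.59. Without KO mouse 4 it was -0.80 with an adjusted p of 0.0248, the only pair and setting that passed among those run, and adjusted p ran from 0.0248 to 0.598 over the alternatives. With slide means removed r was -0.51, and within the genotypes it was -0.74 in WT and -0.63 in KO (n = 7 each).

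Pcp2 and Cabp5 went the same way (r = 0.63, permutation p = 0.0265, adjusted p = 0.199; rho = 0.63, permutation p = 0.0187, adjusted p = 0.217; n = 14). Mean Cabp5 was 0.31, 0.15, 0.05 and -0.03 on slides 1 to 4. With slide means removed r was 0.57 (permutation p = 0.0549), and no pair had a permutation p under 0.05. Without the 2 eyes farthest from the median of Pcp2 it was 0.69. With the rod and cone mean removed it was 0.39 (permutation p = 0.198), the lowest r of this pair in the settings run. Trpm1 had correlations between -0.29 and 0.08 with the other 5 genes, and with slide means removed -0.68 with Cabp5 (permutation p = 0.0531). The Vsx1 and Prkca pair, at r = -0.02, stood at 0.93 under normexp background correction (adjusted p = 0.147).

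**Figure D3:**
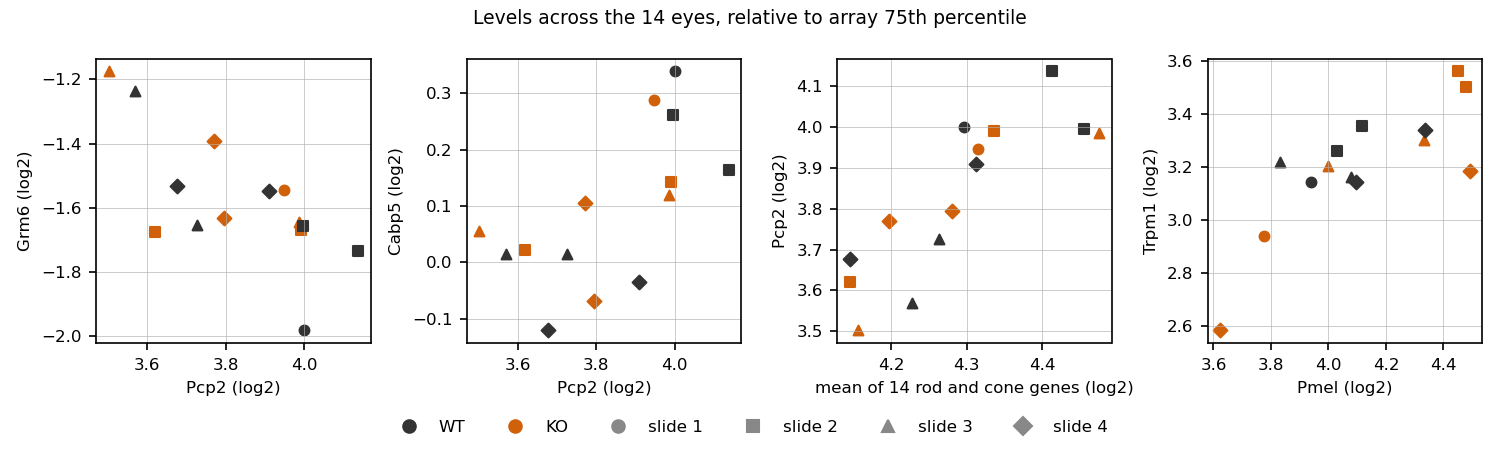
Log2 signals relative to the 75th percentile of the array over the 14 eyes, for Grm6 against Pcp2, Cabp5 against Pcp2, Pcp2 against the mean of 14 rod and cone genes, and Trpm1 against Pmel. Black points are WT and orange points KO, and symbols give the slide. Grm6 falls and Cabp5 rises with Pcp2 (r = -0.69 and 0.63), Pcp2 rises with the rod and cone mean (r = 0.84) and Trpm1 with Pmel (r = 0.84), with genotype means removed.

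Each member was also set against the mean of each cell type list, members left out, which gave 78 relations. Pcp2 with the 14 rod and cone genes was the only one past adjustment for r (r = 0.84, permutation p = 0.00048, adjusted p = 0.0374; rho = 0.85, permutation p = 0.00065, adjusted p = 0.0507; n = 14). Eyes with more rod and cone signal had more Pcp2 signal. Without the 2 eyes farthest from the median of the rod and cone mean r was 0.85, and it was 0.82 in WT and 0.87 in KO eyes alone. With slide means removed r was 0.93 with an adjusted p of 0.0627. With quantile normalization it was 0.63 with an adjusted p of 0.409, the lowest r of the settings run, and leaving out single eyes gave 0.83 to 0.87. Its adjusted p missed 0.05 without WT mouse 4, 6, 7 or 8 or KO mouse 2, 5 or 7, where it was 0.0523 to 0.085. The adjusted p ran from 0.0242 to 0.665 over all alternatives.

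No other member passed with the rod and cone genes. Cabp5 had r = 0.53 with the rod and cone mean (permutation p = 0.0563), Prkca 0.22, Trpm1 0.13, Vsx1 -0.29 and Grm6 -0.45. Differences between the correlations were not tested. Toward the remaining 10 genes of the ON cascade list, r was 0.53 for Pcp2, 0.49 for Cabp5 and -0.20 for Grm6. Pcp2 also had r = 0.74 with the 5 lens genes (adjusted p = 0.118), and Cabp5 had r = -0.66 with the 6 amacrine genes (adjusted p = 0.257).

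**Figure D4:**
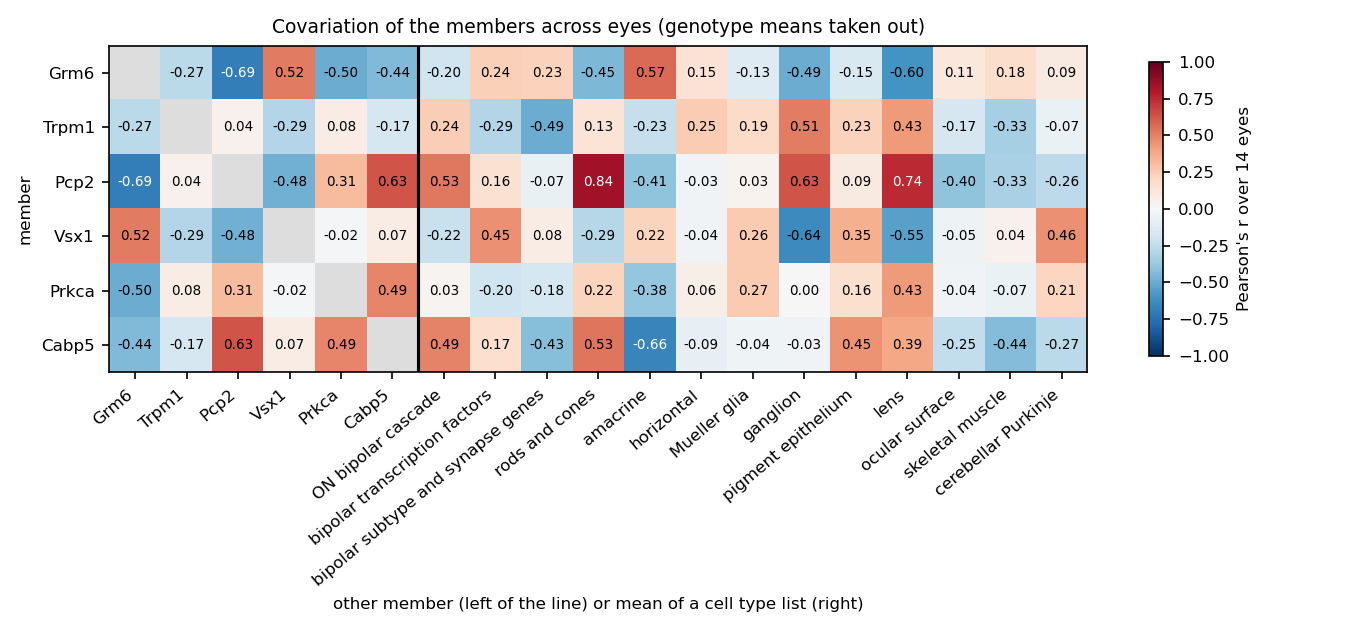
Pearson's r over the 14 eyes, with genotype means removed, of each member (rows) with the other members (left of the line) and with the mean of each cell type list without the members (right of the line), on a colour scale from -1 to 1. Grey cells are a member with itself. The strongest cells are Pcp2 with rods and cones, 0.84, and Pcp2 with lens, 0.74, and no row or column has a single sign among the 6 genes.

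The genes most alike to the mean of the 6 members were sought among 27877 probes, those read well above background in all 14 eyes. The 10 highest were Klhl22 (r = 0.88), Dgkb (0.87), Gtdc1 (0.85), Gle1 (0.85), Tmem106b (0.84), Mtap4 (0.83), Cdc42ep4 (0.83), Ywhae (0.83), Car8 (0.82) and Gpm6a (0.82), over 14 eyes. Each was also above background on all 16 hypothalamus arrays. With slide means removed the list began with Gnb1 (0.86) and Ccdc32 (0.86), and none of the 10 genes of the one list was among the 10 of the other. The highest correlations among so many probes are large by selection, and they are given as a description.

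Single members gave lists of their own, chosen after the values were seen. Those most alike to Trpm1 were S1pr2 (r = 0.93), Slc24a5 (0.89), Car6 (0.86), Pmel (0.84) and Lbp (0.84). None of these, once slide means were removed, was among the 5 highest, which began with Olfr223 (0.97). Slc24a5 and Pmel belong to the melanosome, the pigment organelle, so a set of pigment cell genes was read beside them, also chosen after these values were seen and given without a test. Tyrp1, an enzyme of melanin synthesis, had r = 0.80 with Trpm1, Mlana 0.78, Dct 0.75 by its probe A_51_P116838 and Slc45a2, a melanosome transporter, 0.72. Tyr had 0.42, Mc1r 0.40, Oca2 0.28, Gpr143 0.14 and Slc24a4 -0.21, and Mitf had 0.36 and 0.10 by its 2 probes. With slide means removed the first 6 lay between 0.84 for Tyrp1 and 0.93 for Dct.

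The Trpm1 signal was lowest in the eyes of KO mice 8 and 2, at 2.58 and 2.94, where Pmel was lowest too, at 3.62 and 3.78. It was highest in KO mice 3 and 4, at 3.56 and 3.50, with Pmel at 4.45 and 4.48, and KO mouse 7 had the highest Pmel, 4.49, with Trpm1 at 3.19. Without the 2 eyes farthest from the median of each pigment gene, r with Trpm1 was 0.50 for Pmel, 0.75 for Slc24a5 and 0.18 for Tyrp1. Of these 3, the Tyrp1 value over all eyes leaned most on its 2 farthest eyes. In WT eyes alone, where Trpm1 spread little, r was 0.53 for Pmel, 0.63 for Slc24a5 and 0.63 for Tyrp1 (n = 7). With the 4 pigment epithelium genes, which serve the visual cycle and ion transport, Trpm1 had r = 0.23. Pcp2 had r = 0.07 with Pmel and 0.09 with Slc24a5.

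Those most alike to Cabp5 included Drd4 (r = 0.92), the dopamine receptor of photoreceptors, and Dbp (r = 0.92), a clock output gene, with slide means left in. With slide means removed neither was among its 5 highest, which began with Ndufaf4 (0.95). For Pcp2 the gene highest by both measures was Atcay (0.95, and 0.97 with slide means removed).

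Promoter sequence was read for the 6 genes from RefSeq (GRCm38.p6), 250 bases before to 50 after each of their 10 annotated starts. TAATCC, the core that homeodomain factors of the OTX and CRX type bind, was sought on both strands and was present in at least 1 promoter of 2 genes, Cabp5 and Trpm1. It was present in 7.06% of all 32851 promoters read. This share counts promoters and not genes, and a gene with several starts has more promoters that can match. TAATTA, another homeodomain core that reads the same on both strands, was present in 1 of the 4 Pcp2 promoters, at 101 bases before the start, and in 5.29% of all promoters. The 200 bases before the starts of Cabp5 (chr7:13397955-13398154) and of the upstream start of Trpm1 (chr7:64153635-64153834), both on the plus strand, are shown because these hold the matches, set in capitals, which begin 160 and 41 bases before the Cabp5 start and 34 bases before the Trpm1 start, the last on the opposite strand.
Cabp5: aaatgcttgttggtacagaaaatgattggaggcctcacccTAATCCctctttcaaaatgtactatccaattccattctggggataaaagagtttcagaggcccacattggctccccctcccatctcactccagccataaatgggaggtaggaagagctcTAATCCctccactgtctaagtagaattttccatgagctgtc
Trpm1: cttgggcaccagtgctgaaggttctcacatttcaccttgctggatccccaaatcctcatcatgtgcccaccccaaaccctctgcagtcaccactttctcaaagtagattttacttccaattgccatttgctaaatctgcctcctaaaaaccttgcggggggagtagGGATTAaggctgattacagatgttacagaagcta
A match is a stretch of letters and not a site of binding, and the promoters of Grm6, Vsx1 and Prkca held neither core in these windows.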

How the data were processed

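RNA from whole eye and hypothalamic block was hybridised by the authors to 1-colour Agilent 4x44K arrays with 60-mer probes, one array a sample, and scanner intensity was extracted with Feature Extraction 10.7.1.1 per the file headers, which subtracts background and flags outlier spots. The authors also deposited log2 values, which matched the values used here once these were centred on each probe's median within a tissue. From the processed intensities, flagged spots were left out, log2 was taken, spots of a probe were averaged and each array's 75th percentile was subtracted. Eye files held no gene names, so probes were matched by probe name to the hypothalamus files. All columns of the deposited table were mapped to samples.

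Groups were compared with limma 3.58.1 in R 4.3.3, with Benjamini-Hochberg adjustment over all 41174 probes. For tissue and interaction the mouse was a random block (correlation 0.059). Eye and hypothalamus of the same genotype and replicate number were taken to be from the same mouse, which the sample titles do not state. Without this block 8 of 8 member probes were called between the tissues as well. Single probes were also compared by two-sided exact permutation of genotype labels. A probe not well above background in a tissue gave a bound, from each array's lowest signal well above background. Correlations across eyes used deviations from genotype means and 100000 permutations within genotype, two-sided (SciPy 1.17.1). The code was tested on simulated data. Precision is limited by how many arrays each group has.

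The members and the gene lists were chosen with earlier results of these data known. Named were all members, the 10 genes most alike to their mean, and from each list at most 3 per direction with the largest change among those past the threshold, or the 2 largest differences where none passed; 2 genes that this rule names are not reported here. Slc17a7, Irx6, Grik1, the hypothalamic neuropeptide genes, the pigment genes and the genes most alike to single members were added after values were seen. Alternatives were quantile normalization, normexp background correction with an offset of 50, a filter on dim probes, the deposited log2 values, slide or replicate number as a block, the methods' unpaired test, the rod and cone mean as a covariate, and each array left out in turn.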

Additional observations from a re-analysis of the deposited data

Results flagged for a closer look

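In 4 of 32 groups of arrays, each a member probe in a tissue and genotype, the highest or lowest array lay apart by Dixon's test, where chance sets apart about 1 group in 20. Prkca in the hypothalamus of KO mouse 7 stood at -2.13, and the nearest KO array at -2.87. Trpm1 by its RefSeq probe stood at -6.17 in the hypothalamus of WT mouse 7, the only hypothalamic array on which it was well above background, and the nearest WT array at -7.55. Grm6 stood at -7.09 in the hypothalamus of WT mouse 6, not well above background, with the nearest at -8.19. Vsx1 stood at -4.22 in the eye of WT mouse 7, with the nearest at -3.98.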

How the results depend on the processing

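The counts of member probes called kept their value or stayed within 1.5 times of it under every alternative run, for both genotype comparisons, the tissue comparison and the interaction. The number of pairs called across eyes was 0 to 1 when single eyes were left out, with 1 only without KO mouse 4. With normexp background correction, KO minus WT in the eye turned to -0.0082 for Cabp5, 0.27 for Trpm1 by A_51_P349611, 0.21 for Vsx1 and 0.0375 for Prkca, and in hypothalamus to -0.18 for Grm6. The interaction turned to 0.51 for Trpm1 by A_51_P349611, 0.35 for Grm6 and -0.02 for Pcp2 by A_51_P448677 with normexp, and to -0.0167 for Vsx1 with quantile normalization. Without KO mice 1 and 7, chosen after the values were seen, hypothalamic differences turned to 0.0354 for Cabp5, 0.0337 for Trpm1 by A_51_P349611 and 0.0619 for Vsx1. None of these passed adjustment, and the cause was not tested. With normexp the median over all probes was 0.18 in the eye, -0.08 in hypothalamus and 0.25 for the interaction. Without it these medians were 0.0047, -0.01 and 0.0089. Of the values that turned with normexp, Cabp5 in the eye and Pcp2 in the interaction had the sign opposite to the normexp median.

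With single arrays left out, KO minus WT in the eye ran from -0.0314 to 0.0452 for Cabp5 and from -0.11 to 0.0504 for Trpm1 by its RefSeq probe, and in hypothalamus from -0.11 to 0.0017 for Vsx1. The interaction ran from -0.0083 to 0.17 for Cabp5, -0.11 to 0.0743 for Vsx1, -0.38 to 0.0124 for Grm6 and -0.0398 to 0.12 for Pcp2 by A_51_P448677.

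Correlations of same-numbered WT and KO arrays ran from 0.0017 to 0.679 for eyes and from -0.204 to 0.396 for hypothalamus. Same-numbered arrays of a tissue also shared a slide, so these correlations cannot decide whether the numbers pair WT with KO samples. No such pairing was assumed. With the replicate number as a block, 0 of 8 probes passed in the eye and 0 of 8 in hypothalamus, where Prkca stood at 0.37 (adjusted p = 0.956), and with mouse as a fixed term 8 of 8 were higher in the eye.

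Signal over background limits Grm6, Vsx1, Cabp5 and Trpm1 in hypothalamus to bounds. One sampling time in one light period was measured.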
